A study of Mus musculus with 19 samples.

Results

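The 9 genes described here, Igf2r, Plagl1, Grb10, Zrsr1, Impact, Inpp5f, Cdh15, Zdbf2 and Slc38a4, lie at imprinted loci scattered over 8 mouse chromosomes, and they were chosen by name out of 23654 annotated genes. For each gene the tiles (consecutive 2 kb stretches of the genome) within 10 kb of the gene were taken, 333 tiles out of 1327469 in all, and the tile with the highest H3K9me3 value in the day 4 control library was called its top tile. The libraries are chromatin immunoprecipitation sequencing (ChIP-seq) of H3K9me3, H3K27me3 and H3K9me2, trimethylated or dimethylated histone H3 marks of repressed chromatin, in mouse embryonic stem cells (ESCs). For each mark there was 1 control and 1 Dnmt1 conditional knockout (cKO) library at day 4, and 2 of each at day 8, which with 1 input library of control chromatin makes 19. The labels call the groups Wildtype and Dnmt1 KO on the background strain E14, whereas the methods describe a single Dnmt1 loxP/loxP ESC line of strain C57BL/6, kept in serum with LIF, in which Cre recombinase was induced to delete Dnmt1 and days were counted from that induction. Nothing in the labels says that the day 8 libraries came from separate cultures, and the methods treat the ChIP-seq as a single measurement on which no differences were called. The limma p-values here therefore measure only the spread between these libraries, which may be technical.

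An imprinted gene is expressed from only the maternal or the paternal copy. At many such genes, though not all, the choice is set by an imprinting control region. It carries DNA methylation on 1 parental copy, inherited from the egg or the sperm. DNMT1 is the maintenance methyltransferase that copies DNA methylation after replication. The zinc finger protein ZFP57 binds the methylated form of the sequence TGCCGC within such regions and recruits KAP1 and the H3K9 methyltransferase SETDB1, so that H3K9me3 marks the methylated copy, while the unmethylated copy of a CpG-rich region can carry H3K27me3. ChIP-seq libraries count both copies, and all cells, together.

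The deletion was visible in the libraries themselves. In the tile of Dnmt1 at chr9:20744001-20746000 (build NCBIM37), which was chosen after its values were seen, the 6 day 8 control libraries held between 7 and 11 reads, and the 6 cKO libraries held 0 reads in 5 and 1 read in the other. At day 4 the 3 control libraries held 6 to 9 reads there and the 3 cKO libraries 2 to 4. Library totals ran from 5669098 reads (H3K9me3 cKO, day 8 replicate 1) to 26181489, and all H3K9me3 values of that shallow library rest on few reads. H3K27me3 within 2 kb of the gene start was 7.82- to 40.9-fold above input at 6 silent lineage genes across its 6 libraries, and 0.189- to 6.56-fold at 6 pluripotency genes, of which Klf4 and Esrrb were the members that passed 2-fold in any library.

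The top tiles of 7 of the 9 loci were rich in CpG sites, and their sequence is shown because the loci differ in CpG content and in matches to the ZFP57 motif. Igf2r encodes the receptor that clears IGF2, and its top tile, chr17:12934001-12936000, lay 27.5 kb inside the gene, in an Igf2r intron that also holds the start of the antisense noncoding RNA Airn. It held 103 CpG sites and 8 matches to TGCCGC, searched on both strands. The tile of Plagl1, a zinc finger transcription factor, was chr10:12810001-12812000 at the gene start, with 109 CpG sites and 6 matches. Grb10 encodes an adaptor that restrains insulin signalling, and its tile, chr11:11926001-11928000, covered an internal transcript start 11.7 kb into the gene, with 105 CpG sites and 4 matches. The tile of Inpp5f, a phosphoinositide phosphatase, was chr7:135830001-135832000, again at an internal transcript start, 76.2 kb into the gene, with 71 CpG sites and 5 matches. Cdh15 encodes the muscle cadherin M-cadherin, and its tile, chr8:125388001-125390000, fell on coding exons 17.1 kb into the gene, away from any annotated transcript start, with 67 CpG sites and 2 matches. The tile of Zrsr1, a splicing factor gene that lies inside Commd1, was chr11:22872001-22874000 and spanned the Zrsr1 start and a Commd1 exon, with 113 CpG sites and 2 matches. Impact encodes a regulator of the GCN2 stress kinase, and its tile, chr18:13130001-13132000, was at the gene start with 60 CpG sites and 3 matches.

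In contrast to these 7 tiles, the top tile of Zdbf2, which encodes a zinc finger protein, was chr1:63330001-63332000 in an intron 11.2 kb into the gene, with 6 CpG sites and 0 matches. The top tile of the amino acid transporter gene Slc38a4, chr15:96814001-96816000, was intergenic, beyond the 3′ end of the gene, with 25 CpG sites and 0 matches. Over all tiles without unknown bases, 10.9% held TGCCGC and the median tile held 14 CpG sites. Among tiles with 60 or more CpG sites, 11137 of 18567 held the motif, and 3.90% held 4 or more matches.

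The following 7 stretches of 180 bases, 5 from CpG-rich top tiles and then those of Slc38a4 and Zdbf2, were read from NCBIM37 on the plus strand. Each is the stretch of its tile, outside annotated UTRs, with the most motif matches and, where equal, the most CpG sites. Capitals mark TGCCGC or its reverse complement in the sequences of Igf2r, Plagl1, Inpp5f and Cdh15, and CpG sites in those of Grb10, Slc38a4 and Zdbf2, whose stretches held no match.
Igf2r, chr17:12934598-12934777: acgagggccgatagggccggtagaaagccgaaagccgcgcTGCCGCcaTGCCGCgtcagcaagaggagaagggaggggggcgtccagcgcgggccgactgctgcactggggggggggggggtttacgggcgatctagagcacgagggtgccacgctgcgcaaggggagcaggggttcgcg
Plagl1, chr10:12810845-12811024: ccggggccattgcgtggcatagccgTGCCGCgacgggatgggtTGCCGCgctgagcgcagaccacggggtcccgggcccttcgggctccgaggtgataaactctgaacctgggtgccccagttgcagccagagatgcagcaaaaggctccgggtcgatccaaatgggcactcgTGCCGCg
Grb10, chr11:11926330-11926509: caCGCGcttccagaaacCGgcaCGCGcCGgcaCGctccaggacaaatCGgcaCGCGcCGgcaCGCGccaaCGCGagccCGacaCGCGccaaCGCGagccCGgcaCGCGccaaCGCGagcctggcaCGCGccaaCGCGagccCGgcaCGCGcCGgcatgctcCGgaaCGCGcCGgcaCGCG
Inpp5f, chr7:135831384-135831563: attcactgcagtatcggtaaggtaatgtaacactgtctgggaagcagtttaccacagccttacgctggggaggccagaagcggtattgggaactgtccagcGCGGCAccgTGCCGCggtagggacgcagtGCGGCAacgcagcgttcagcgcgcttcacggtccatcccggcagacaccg
Cdh15, chr8:125388899-125389078: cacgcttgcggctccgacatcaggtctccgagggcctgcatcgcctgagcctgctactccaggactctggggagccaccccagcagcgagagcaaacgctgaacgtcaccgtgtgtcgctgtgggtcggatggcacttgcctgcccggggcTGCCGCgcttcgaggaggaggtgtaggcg
Slc38a4, chr15:96814018-96814197: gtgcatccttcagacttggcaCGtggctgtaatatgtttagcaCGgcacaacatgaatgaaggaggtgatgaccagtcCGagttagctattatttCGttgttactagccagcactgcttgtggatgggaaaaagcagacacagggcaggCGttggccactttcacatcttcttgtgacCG
Zdbf2, chr1:63330001-63330180: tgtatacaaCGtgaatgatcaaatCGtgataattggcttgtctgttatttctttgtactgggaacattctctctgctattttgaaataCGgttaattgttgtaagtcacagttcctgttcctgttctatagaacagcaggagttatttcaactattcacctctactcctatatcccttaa
The Plagl1 and Inpp5f stretches each held 3 matches and the Igf2r stretch held 2, whereas the Grb10 stretch was a CpG-dense tandem repeat with 39 CpG sites. In the stretches with most CpG sites, Slc38a4 had 6 and Zdbf2 had 3.

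At day 4 H3K9me3 was well above input at the 7 CpG-rich tiles in both genotypes. Since the day 4 control library chose the tiles, these values are a description. RPM values (reads in a tile scaled to the library total) in the control and the cKO library were 5.13 and 3.63 at Igf2r, 5.81 and 3.54 at Plagl1, and 5.13 and 3.81 at Grb10. They were 4.78 and 2.47 at Zrsr1, 3.87 and 2.24 at Impact, 4.56 and 2.74 at Inpp5f, and 9.17 and 7.89 at Cdh15. The cKO level was below the control level at all 9 loci, but choosing tiles by their control value favours this direction. At Zdbf2 the ratio of cKO to control was 0.577 at day 4 and 1.00 at day 8. The ratio over the 7 tiles at day 4 ran from 0.516 (Zrsr1) to 0.861 (Cdh15). Slc38a4 had 2.85 and 2.47 RPM, and Zdbf2 1.71 and 0.987.

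In reads summed over both day 8 libraries, H3K9me3 at the same 7 tiles was 0.454 to 2.97 times the input level in the cKO. In the control it was 6.12 to 12.8 times that level. The greatest ratio was at Zrsr1, where the 2 control libraries gave 7.62 and 3.92 RPM and the 2 cKO libraries 1.06 and 0.154. Summed over both libraries this was 16.04-fold lower in the cKO, with a 95% exact binomial interval of 8.30 to 35.6. Like all such intervals here, it covers counting error only. Such sums weight libraries by their reads, and cKO replicate 1 held 5669098 reads against 19465245 in replicate 2. Summed cKO levels therefore lie nearer replicate 2, and at Inpp5f and Cdh15 the summed fold exceeds that of both pairs. At Plagl1 the control libraries gave 8.05 and 4.75 and the cKO libraries 1.23 and 0.360, 11.4-fold lower (6.69 to 21.2). The counts behind these cKO values were small, 6 and 3 reads at Zrsr1 and 7 in each library at Plagl1, against an input of 15 and 18 reads.

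Inpp5f fell from 7.67 and 4.44 RPM to 1.23 and 0.514, 8.92-fold lower (5.45 to 15.6). Impact fell from 6.08 and 3.61 to 1.41 and 0.565, 6.38-fold lower (3.97 to 10.8). Grb10 fell from 9.11 and 5.32 to 1.06 and 1.44, 5.31-fold lower (3.71 to 7.83). At these loci both cKO libraries were below both control libraries, and the cKO reads were 0.918 to 1.61 times the input. How many of all tiles separate in this way was not counted.

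Relative to input, Igf2r and Cdh15 kept the most H3K9me3 among the 7. At Igf2r the control libraries gave 8.74 and 5.42 RPM and the cKO libraries 2.82 and 0.873, 5.37-fold lower (3.73 to 7.97). This left 2.08 times the input in summed reads. The input was 0.631 RPM, so cKO replicate 1 stood further above it than replicate 2. At Cdh15, the highest of the loci, 12.5 and 6.51 in the control stood against 4.23 and 1.59 in the cKO, 4.31-fold lower (3.24 to 5.84), and 2.97 times the input remained. The groups did not overlap at either locus, but 2 libraries against 2 allow only 6 arrangements. The share of all tiles that separate in this way was not counted. The 2 cKO libraries differed by more than 2-fold from each other, as they did at every one of the 7 loci except Grb10.

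Slc38a4 and Zdbf2 showed no such drop. The Slc38a4 tile had 2.98 and 2.48 RPM in the control and 3.53 and 2.31 in the cKO, so that the groups overlapped, and the ratio of cKO to control was 0.948 (95% exact binomial interval 0.684 to 1.31) at 3.99 times the input. Zdbf2 had 1.12 and 1.498 in the control and 1.23 and 1.34 in the cKO, a ratio of 1.00 (0.625 to 1.59). The Zdbf2 tile was only 1.39-fold above input in the control. The plot of H3K9me3 by library shows the 7 loci beside these 2.

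**Figure D1:**
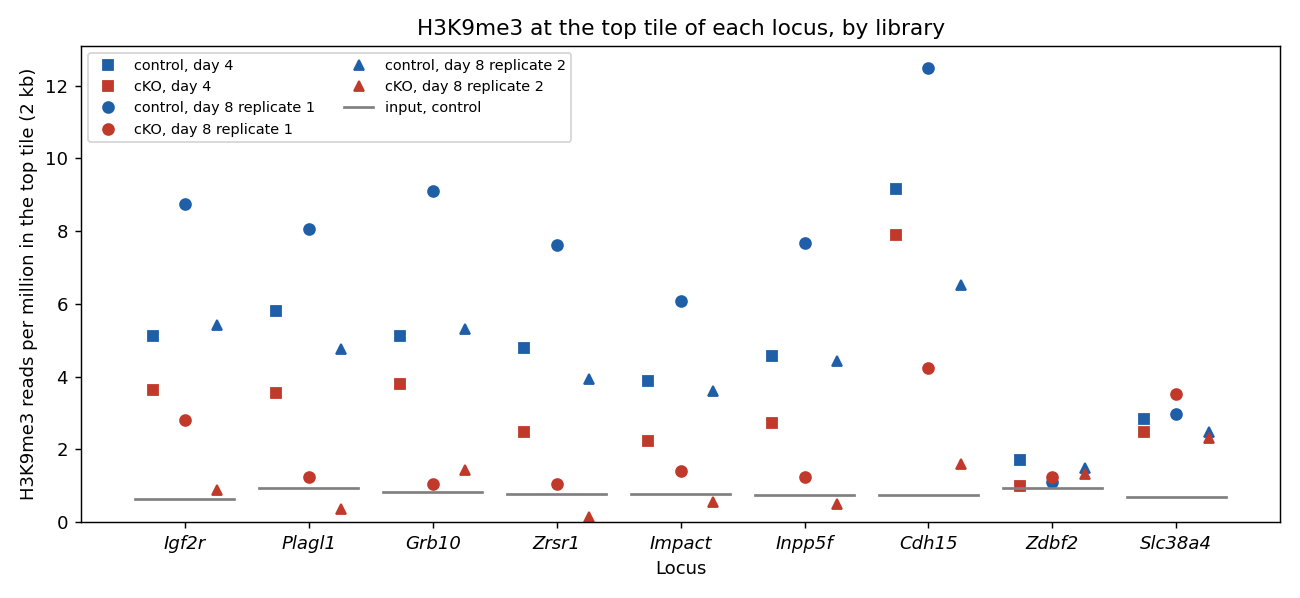
H3K9me3 RPM in the 2 kb top tile of each locus (vertical axis), with a point for each control (blue) and cKO (red) library and a grey line for the input of control chromatin. At day 8 both cKO points lie below both control points at the 7 loci from Igf2r to Cdh15, whereas Zdbf2 and Slc38a4 points overlap. With 2 libraries against 2 there are only 6 arrangements, and the share of all tiles separated in this way was not counted.

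On the deposited log2 scale, which compares the reads of a tile with those expected if all reads were spread evenly, the day 8 difference (cKO minus control, mean ± SD over the 2 same-numbered pairs) was -3.76 ± 1.29 at Zrsr1, -3.21 ± 0.72 at Plagl1, -2.87 ± 0.34 at Inpp5f, -2.50 ± 0.86 at Grb10, -2.39 ± 0.40 at Impact, -2.13 ± 0.71 at Igf2r and -1.79 ± 0.33 at Cdh15. It was 0.07 ± 0.24 at Slc38a4 and -0.01 ± 0.22 at Zdbf2. Over the 9 loci the median was -2.39, against -0.04 over the 1256638 tiles tested. In limma with Benjamini-Hochberg adjustment over all those tiles, 5 of the 9 top tiles fell, with adjusted p of 0.00076 (Plagl1), 0.00089 (Inpp5f), 0.0013 (Grb10), 0.0014 (Zrsr1) and 0.0082 (Impact). Only 0.00812% of all tiles were called lower. Igf2r (adjusted p = 0.062) and Cdh15 (adjusted p = 0.28) were not called, nor were Slc38a4 (0.97) and Zdbf2 (0.997).

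How many loci passed limma depended on the fit, whereas the 7 differences stayed negative. With a correction for GC content, or with no trend of variance on mean, 0 of the 9 and 0 of all 1256638 tiles were called. Limma-voom on the reads called 7 of the 9, and 266 of all tiles lower. Without the day 8 control replicate 1 all 7 differences were smaller in size. They were -3.28 at Zrsr1, -2.83 at Plagl1, -2.48 at Inpp5f, -2.11 at Grb10, -2.02 at Impact, -1.79 at Igf2r and -1.325 at Cdh15. Without the shallow cKO replicate 1 the difference at Zrsr1 moved to -5.15 and at Cdh15 to -2.50. Leaving out any of the 4 libraries kept each of the 7 differences between -1.09 and -5.15.

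The loci were also set into classes by fold. Among loci whose top tile was at least 2-fold above input in the day 8 control, 7 of 8 lost H3K9me3 (at least 2-fold lower in the cKO in both pairs), Slc38a4 kept it, and Zdbf2 fell in neither class. The Slc38a4 tile is intergenic, 71.4 kb from the gene start. Its class describes that tile and not the start of the gene. Nearest the limit on the losing side were the replicate 1 pairs of Cdh15 (-1.56) and Igf2r (-1.63), and on the keeping side the replicate 2 pair of Slc38a4 (-0.10), all as log2 differences. When the top tile of every annotated gene was treated alike, 173 of 5566 tiles at least 2-fold above input lost it, 3.11%. With a flank of 5 kb in place of 10 kb, the Slc38a4 top tile was another one, which was not 2-fold above input, so that no locus was left that kept the mark. At a limit of 4-fold only Plagl1, Zrsr1, Impact and Inpp5f lost it.

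The classes also differed in what their sequence holds, which the choice of tiles did not use. The 7 losing tiles held 60 to 113 CpG sites and 2 to 8 matches to TGCCGC, and the Slc38a4 tile held 25 and 0. With only 1 locus that kept the mark this is a description. Over the genome, among tiles at least 4-fold above input in the day 4 H3K9me3 control, 14.0% of the 242 with 60 or more CpG sites lost the mark at day 8 by the same rule, compared with 3.66% of the 1337 with 40 to 59, 1.53% of the 4912 with 20 to 39 and 1.93% of the 5446 with fewer. Of the 242, the 163 with the motif lost it in 19.02% and the 79 without it in 3.80%. With 40 to 59 CpG sites the shares were 4.29% with and 2.34% without the motif. They were 2.11% and 1.23% with 20 to 39, and 1.56% and 1.97%, the other way round, with fewer. CpG content, GC content and motif go together in these tiles, and their parts were not separated. Of the 34 CpG-rich tiles that lost the mark, 8 lay within 10 kb of the 9 genes. Another 10 lay near other imprinted genes of the list described below, and 16 lay elsewhere. The shares above include these windows, and shares without them are not given here.

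**Figure D2:**
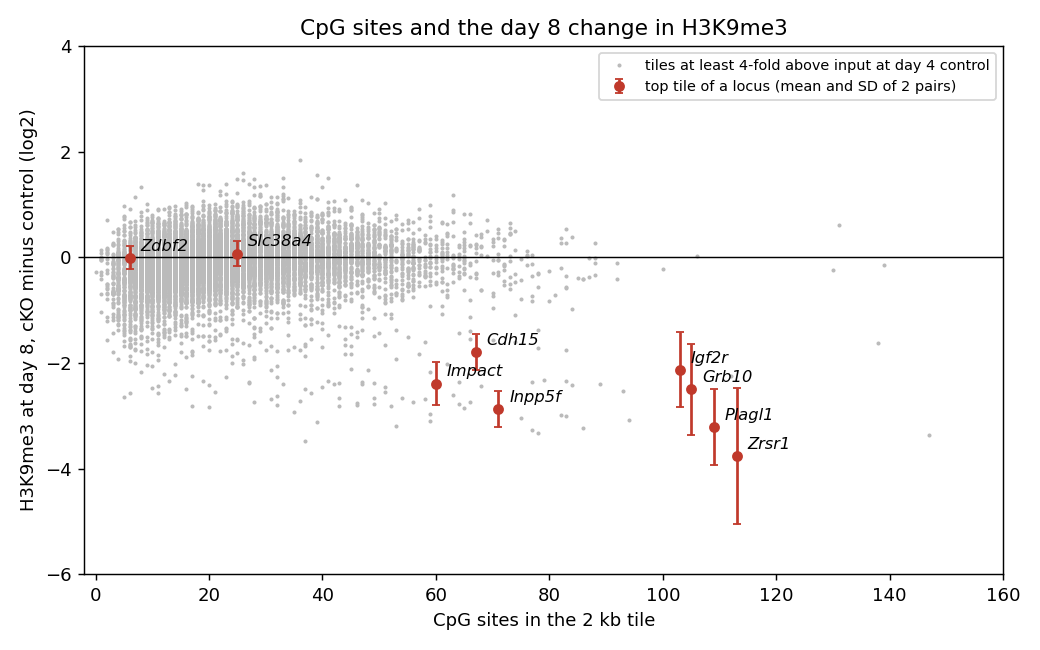
Difference in H3K9me3 at day 8 (cKO minus control, log2, vertical axis) against the number of CpG sites in the 2 kb tile (horizontal axis). Grey points are the tiles at least 4-fold above input in the day 4 control, and red points are the top tiles of the 9 loci with the SD of 2 pairs. The 7 losing loci lie between -1.79 and -3.76 at 60 or more CpG sites.

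In summed reads the lower values in the cKO extended beyond the top tile at all 7 losing loci, to a differing extent. Runs of neighbouring tiles at least 2-fold above input around the top tile spanned 4 kb at Inpp5f, 6 kb at Impact and Cdh15, 8 kb at Igf2r and Plagl1, 10 kb at Zrsr1 and 16 kb at Grb10. At Grb10, 10 tiles of the window were at least 2-fold above input, of which 8 were at least 2-fold lower in the cKO in summed reads and 5 in both pairs. By either count these were 4 of 5 tiles at Plagl1 and Zrsr1, 2 of 3 at Impact and 2 of 6 at Inpp5f. At Cdh15 they were 3 of 3 in summed reads and 2 in both pairs. At Igf2r they were 3 of 5 in summed reads, and in both pairs only 1, the top tile itself. The ratio of cKO to control was lower beside the top tile than in it at Grb10 (0.132, chr11:11924001-11926000) and Impact (0.130, chr18:13132001-13134000). In each of the 7 windows the top tile had the highest control level at day 8 as well. In the cKO it ranked first of its window only at Cdh15, and fell to rank 20 of 31 at Plagl1 and 29 of 53 at Inpp5f.

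Away from the peaks the windows differed. The median RPM of the tiles other than the top tile was lower in the cKO at Zrsr1 (0.669 in the control and 0.378 in the cKO), Impact (0.761 and 0.477), Plagl1 (0.931 and 0.676) and Grb10 (0.761 and 0.716). It was 0.734 and 0.736 at Inpp5f, 0.603 and 0.617 at Cdh15, and 0.813 and 0.995 at Igf2r. Taken against the other tiles of its window, the log2 difference at the top tile was -2.26 at Zrsr1 and -1.71 at Impact, in place of -3.76 and -2.39, and it stayed at -1.47 or below at all 7 loci. At Inpp5f, a tile near the start of the window with 20 CpG sites, chr7:135746001-135748000, had 81 and 63 reads in the control and 26 and 57 in the cKO, a ratio of 0.874 in RPM, while the top tile 84 kb away dropped 8.92-fold. The CpG-richest tiles of Igf2r and Grb10, at the gene starts with 120 and 215 CpG sites, were 1.42 and 0.457 times the input in control H3K9me3. At Slc38a4 the CpG-richest tile lay beside the gene start, 70 kb from the top tile, with 82 CpG sites. It held 25 and 8 control reads and 2 and 10 cKO reads, 1.65 times the input in the control.

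**Figure D3:**
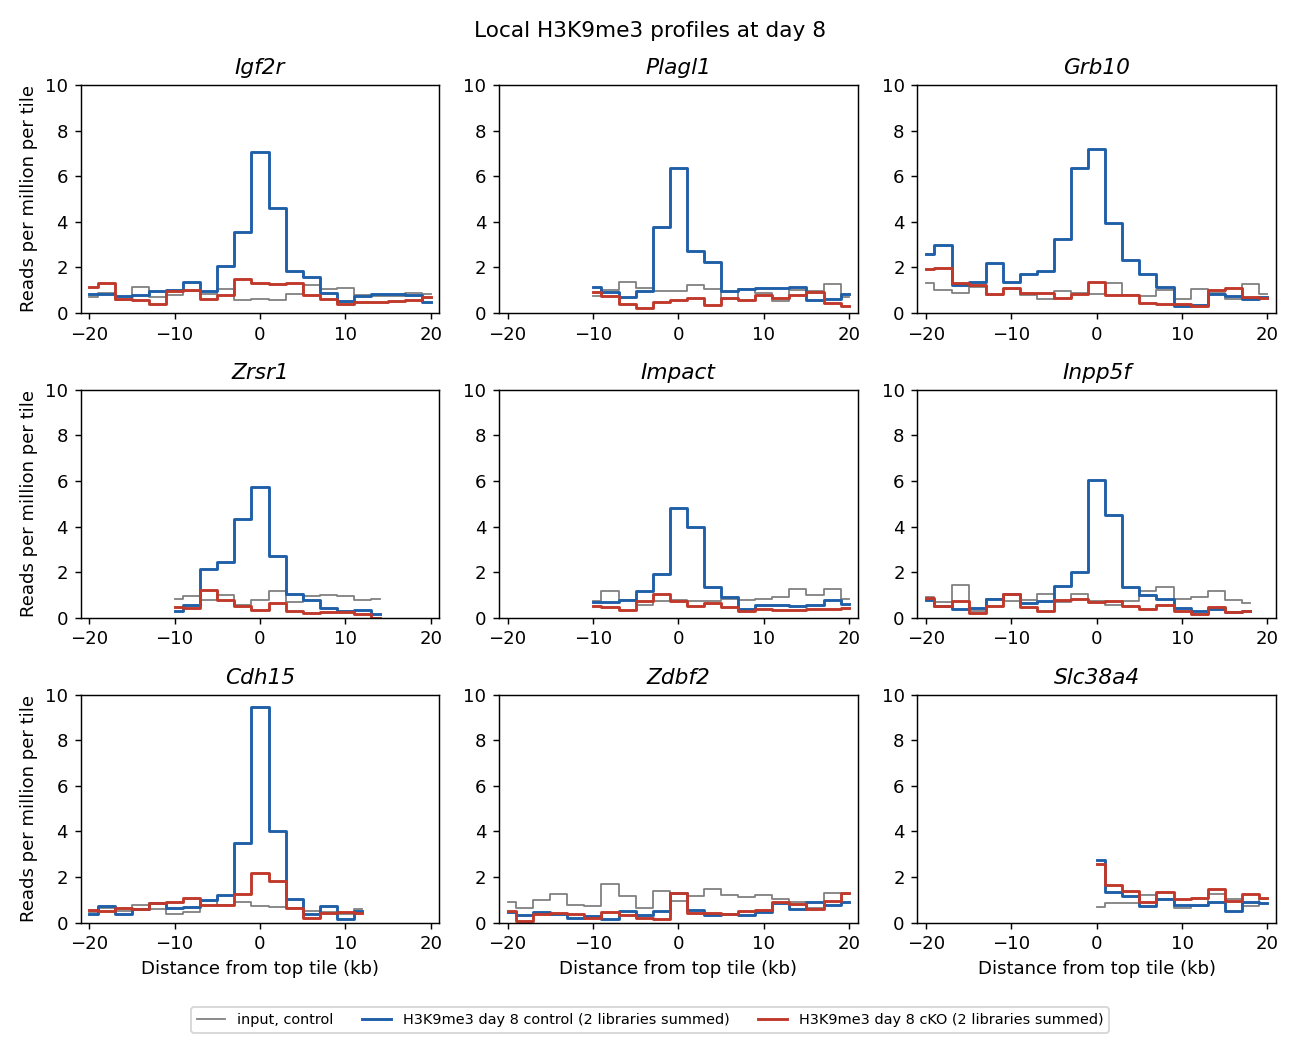
RPM per 2 kb tile (vertical axis) against the distance from the top tile in kb (horizontal axis) at the 9 loci, for H3K9me3 at day 8 in control (blue) and cKO (red), each the sum of 2 libraries, and for input (grey). The 7 control peaks are 4 to 16 kb wide and much lower in the cKO. There the top tiles of Cdh15 (2.97 times the input), Igf2r (2.08 times) and Grb10 (1.61 times) remain above the input line. The Slc38a4 top tile is similar in control and cKO. Where a line ends, the tiles within 10 kb of the gene end.

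Over the whole windows, 12 of the 102 tiles that limma called lower lay within 10 kb of the 9 genes, 4 at Grb10 and 2 each at Inpp5f, Plagl1, Zrsr1 and Impact. Summed over each window, H3K9me3 fell at 5 genes by limma, and the log2 difference (± SE) was -1.78 ± 0.20 at Zrsr1, whose window was the shortest, -0.89 ± 0.17 at Impact, -0.78 ± 0.11 at Plagl1, -0.66 ± 0.14 at Cdh15 and -0.61 ± 0.09 at Grb10, with adjusted p from 0.00030 to 0.013. Of all 23507 windows 2.41% were called lower and 5.04% higher. The windows of Inpp5f (-0.35 ± 0.11, adjusted p = 0.076) and Igf2r (-0.14 ± 0.12, adjusted p = 0.56), in which the top tile is 1 of 53 and 1 of 55, were not called by limma. The Slc38a4 window rose by 0.34 ± 0.10 (limma, adjusted p = 0.042), but lost the call with GC correction (adjusted p = 0.19) and without control replicate 1 (0.14) or 2 (0.52), and the Cdh15 window lost its call without control replicate 1 (0.17). With no trend, limma called none of the 9 windows.

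H3K27me3 split the loci in another way. In the day 8 control it was above input at Grb10 (9.85-fold), Plagl1 (6.06-fold) and Igf2r (5.48-fold), close to it at Inpp5f, Cdh15 and Slc38a4 (0.951- to 1.29-fold), and below it at Impact, Zdbf2 and Zrsr1 (0.294- to 0.383-fold). At the Igf2r tile, where Airn starts, H3K27me3 fell. The day 8 control libraries gave 4.09 and 2.87 RPM and the cKO libraries 0.991 and 0.535, a log2 difference of -2.24 ± 0.27 (SD, n = 2 pairs; limma, adjusted p = 0.00026), and at day 4 the values were 2.70 and 1.81. It was the only top tile called for this mark, for which 0.182% of all tiles were called lower. The call was lost with no trend of variance on mean (limma, adjusted p = 0.54).

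CpG-rich tiles in general were lower in H3K27me3 in the cKO. Among the 5282 tiles with 60 or more CpG sites that were at least 4-fold above input in the day 4 H3K27me3 control, the median day 8 difference was -0.98 on the log2 scale, 13.3% were called lower, and 1.80% had a more negative difference than the Igf2r tile. At Plagl1, H3K27me3 was 6.69 and 4.85 RPM in the control and 2.88 and 2.18 in the cKO, a log2 difference of -1.19 ± 0.04 (limma, adjusted p = 0.12) close to that median. Without cKO replicate 1 it passed (limma, adjusted p = 0.041). Grb10 stayed high, with 9.33 and 7.32 in the control against 6.44 and 6.15 in the cKO, a log2 difference of -0.39 ± 0.20 (limma, adjusted p = 0.83), while it lost H3K9me3.

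At Cdh15 and Inpp5f the H3K27me3 level was higher in the cKO in both day 8 pairs, without passing the test. Cdh15 had 0.673 and 0.853 RPM in the control and 1.04 and 1.26 in the cKO, a log2 difference of 0.60 ± 0.05 (limma, adjusted p = 0.60). Inpp5f had 1.15 and 0.763 against 1.24 and 1.22 (0.39 ± 0.41, limma, adjusted p = 0.75). At Zrsr1 and Impact 1 to 9 reads per day 8 library give no usable difference. None of the 9 windows was called for H3K27me3, where 0% of 23512 windows were (5205 had an unadjusted p under 0.05, limma-voom called 0). With cKO replicate 1 left out, the window differences ran from -0.78 (Zrsr1) to 0.31 (Cdh15), and the median over all windows was -0.16.

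H3K9me2 was below input at the 7 CpG-rich tiles. In the day 8 control it was 0.0661 (Zrsr1) to 0.461 (Cdh15) times the input, with 1 to 7 reads per library, compared with 1.30 times at Slc38a4. CpG-rich tiles in general were low in it, with a median 2.29 below input on the log2 scale over the 18085 tiles with 60 or more CpG sites. In the cKO the level was higher in both pairs at 6 loci, with 3 and 16 reads at Plagl1 against 2 and 1 in the control, and 8 and 19 at Grb10 against 3 and 6. Limma called none of the 9 tiles (lowest adjusted p = 0.76) and 0% of 1254661 tiles, of which 80852 had an unadjusted p under 0.05, while limma-voom called 12. The pairs differed in this, and over CpG-rich tiles the median log2 difference was 0.23 in the first pair and 1.32 in the second. The part of that second pair in the values at these loci was not tested. None of the windows was called for H3K9me2 either, as with 0% of 23515 windows (1745 with an unadjusted p under 0.05, limma-voom 0). Without cKO replicate 1, the window differences ran from -0.098 (Impact) to 1.07 (Zrsr1), and the median over all windows was 0.40.

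**Figure D4:**
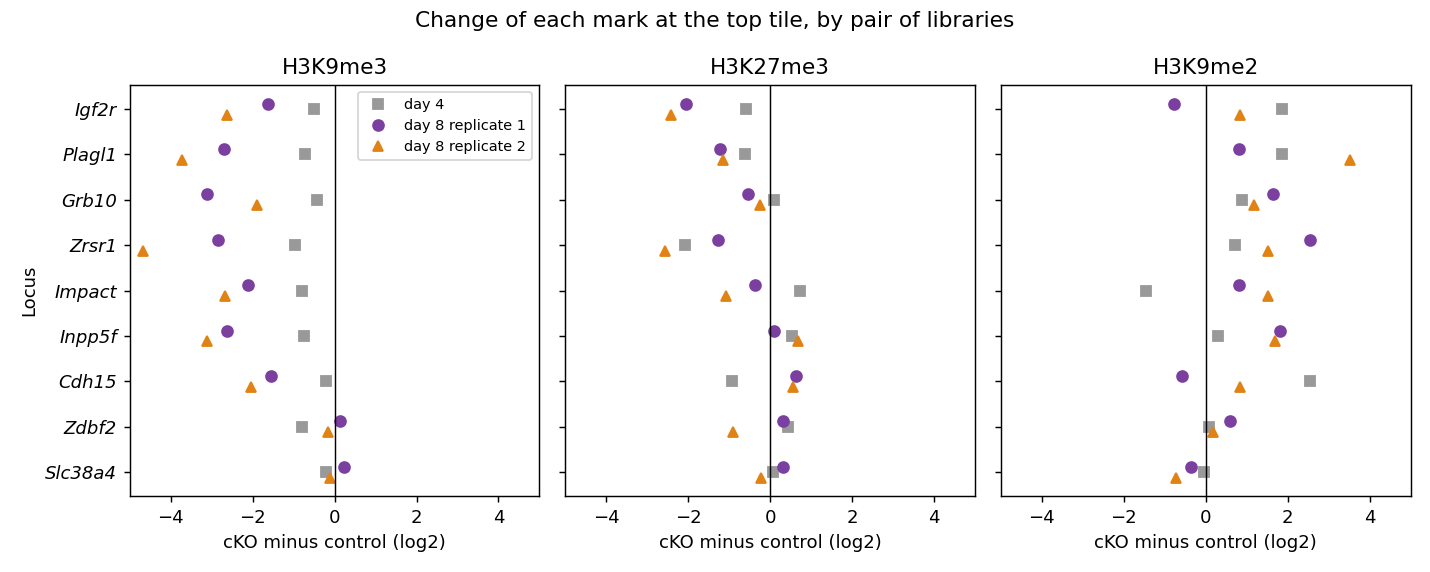
Difference between cKO and control (log2, horizontal axis) at the top tile of each locus for H3K9me3, H3K27me3 and H3K9me2, with a square for day 4 (1 pair) and a circle and a triangle for the 2 day 8 pairs. H3K9me3 lies left of 0 in both day 8 pairs at 7 loci, H3K27me3 at 5, and H3K9me2 at Slc38a4 only. The 5 include Zrsr1 and Impact, with too few H3K27me3 reads for a usable difference. Over tiles with 60 or more CpG sites the median day 8 difference was -0.74 for H3K27me3 and 0.74 for H3K9me2. The share of all tiles with the same sign in both pairs is not given here.

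Genes beside these loci and other imprinted genes place the values. Of 18 listed neighbours, 8 had a top tile at least 2-fold above input in the day 8 control. The 3 that lost H3K9me3, Airn, Commd1 and Mcmbp, were those whose top tile was the tile of Igf2r, Zrsr1 or Inpp5f itself. The 5 that kept it, Ddc, Cobl, Slc38a1, Gpr1 and Osbpl1a, had tiles of 10 to 37 CpG sites. Ddc, next to Grb10, had 138 and 83 reads in the control and 32 and 64 in the cKO, a log2 difference of -0.38, and Slc38a1, near Slc38a4, had 105 and 74 against 40 and 69, a difference of 0.11.

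Of 13 other imprinted genes listed, 11 were in the annotation and 9 were at least 2-fold above input. H3K9me3 was lost at the top tiles of 8 of them, H19, Snrpn, Gnas, Nnat, Peg3, Peg10, Mest and Nap1l5, which held 53 to 147 CpG sites, and Meg3, whose tile held 32, was 2-fold lower in only 1 pair. The median log2 difference over the 11 was -2.24. Their differences at Gnas (-3.36) and Nap1l5 (-3.04) were of the size seen at Plagl1 and Zrsr1.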

How the data were processed

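The authors used Trim Galore for trimming and Bowtie2 (2.2.9 in the submitters' processing notes) for mapping to NCBIM37, and dropped reads of low mapping quality. The deposited unit is the log2 of observed over expected reads per tile, without replicates pooled and without input correction. The methods speak of shorter tiles than the 2 kb of the table, and removal of PCR duplicates is not given in the sources used here.

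Whole reads were recovered from the log2 values (100% of low values within 0.1 read of a whole number), and RPM refers to the total of reads in tiles. Tiles without reads carry a floor of 0.9 read. Tile ends equalled the NCBIM37 lengths of 22 of 22 chromosomes. Annotation was GENCODE vM1. For each mark, limma 3.58.1 (R 4.3.3) compared the day 8 groups (trended variance, two-sided, Benjamini-Hochberg over all tiles or windows with a read, threshold 0.05), on the deposited values for tiles and on log2 RPM with 0.5 read added for windows. Alternatives were other fits, scalings, filters, a replicate block, leaving out each library, and other choices of top tile and fold. Day 4 has 1 library per group and was not tested. With 2 libraries against 2, an exact permutation test cannot go below 0.333.

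The text names the 9 genes, listed neighbours, other imprinted genes and markers, and Dnmt1. Members, lists and tests were chosen with earlier results of these data known. Replicate libraries differed beyond counting noise (chi-square per degree of freedom 1.10 to 1.69 on chromosome 19). Kcnq1ot1 and Peg13 of the list were not analysed here.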

Additional observations from a re-analysis of the deposited data

Results flagged for a closer look

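At 3 loci the log2 difference between cKO and control had one sign in the day 4 pair and the other sign in both day 8 pairs. These differences between days were not tested, since day 4 had 1 library per group. H3K27me3 at Grb10 was 0.091 at day 4 and -0.53 and -0.25 at day 8. H3K27me3 at Impact was 0.73 at day 4 and -0.37 and -1.08 at day 8, from 3 to 9 reads per library. H3K27me3 at Cdh15 was -0.94 at day 4 and 0.63 and 0.56 at day 8. Its day 4 value rests on 25 control and 11 cKO reads, a ratio of 0.52 with an interval (0.23 to 1.10) that also covers no change. H3K9me2 at Impact was -1.45 at day 4 and 0.81 and 1.51 at day 8, from 4 to 16 reads per library.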

How the results depend on the processing

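The number of calls depended strongly on the fit, whereas the direction at the 7 loci that lost H3K9me3 did not. H3K9me3 tiles called were 107, but 0 with no trend or with GC correction, 485 with limma-voom, 1309 among tiles with a mean of at least 10 reads, 7 with the replicate block (none of them a top tile of the 9 loci), and 24 to 75220 when 1 library was left out, the highest without cKO replicate 2. H3K9me3 windows called were 1750, but 7 with no trend, 2714 with limma-voom, 3679 with the replicate block, 445 with GC correction and 244 to 5260 with 1 library left out. H3K27me3 tiles called were 3067, but 0 with no trend, 5408 with limma-voom, 27645 with the replicate block (Igf2r and Plagl1 among them), 5009 with at least 10 reads, 1427 with GC correction and 1609 to 10012 with 1 library left out. H3K27me3 windows called were 0, but 8917 with the replicate block (6 of the 9 loci), 1650 with GC correction and 50 to 3721 with 1 library left out. H3K9me2 tiles called were 0, but 12 with limma-voom, 1 with the replicate block, 11 with at least 10 reads, 3 with GC correction and 0 to 77 with 1 library left out. H3K9me2 windows called were 0, but 1193 with the replicate block and 0 to 7552 with 1 library left out. The cause of these moves was not tested. The labels do not say that same-numbered libraries share a culture or day, and over tiles with at least 10 reads their deviations correlated at 0.0593 (H3K9me3), 0.119 (H3K27me3) and 0.0327 (H3K9me2), so no block was used in the tests. The SDs and the classes by fold do set same-numbered libraries side by side, and classes from summed reads, which use no numbers, gave the same 7 losing loci.

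Of the 9 loci, 7 lost H3K9me3, and 4 did at a limit of 4-fold. The other alternatives gave 6 or 7. Inpp5f left the count when its top tile was picked by the day 4 cKO or by day 4 control minus input, since another tile of its window was then taken. Differences near 0 changed sign. For H3K9me3 at Zdbf2 they were 0.031 with limma-voom and 0.031 with libraries centred on 100 kb medians, 0.18 with GC correction, 0.74 with the tile highest in the day 4 cKO, and -0.22 to 0.20 with 1 library left out. For H3K9me3 at Slc38a4 the difference was -0.042 with GC correction, -0.29 against the other tiles of the window and -0.23 to 0.38 with 1 library left out, and it was 1.08 with a 5 kb and 0.875 with a 20 kb flank, where other tiles were taken (neither called by limma). For H3K27me3 at Slc38a4 it was -0.0011 with limma-voom, -0.040 with centring, -0.11 with GC correction and -0.28 to 0.37 with 1 library left out, and at Zdbf2 -0.62 to 0.017 with 1 library left out. H3K9me2 became -0.85 at Igf2r and -0.61 at Cdh15 with GC correction, and with 1 library left out ran from -0.50 to 0.56 at Igf2r, from -0.69 to 0.95 at Cdh15 and from -0.23 to 0.995 at Zdbf2. With 1 library left out, a lone library is assumed to vary like the other group. Depth limits the H3K9me3 cKO values at day 8, since 1 of the 2 libraries held 5669098 reads.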
